A study of Mus musculus with 18 samples.

Results

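The clusters TCell2 and TCell3 are the 967 cells of the second E16.5 library of hematopoietic progenitors (HPs) that carry these codes in the deposited cluster annotation. TCell2 holds 486 cells and TCell3 holds 481, together 20.3% (19.2 to 21.5%, exact Clopper-Pearson 95% interval) of the 4752 cells of the library and 45.2% of the 2141 cells coded TCell1 to TCell6. The series as a whole holds 20982 HP cells in 5 HP libraries, within 56201 deposited cells.

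The study profiled murine bone marrow (BM) before and after birth by single-cell RNA sequencing with antibody tags (CITE-Seq). The cells described here are lineage-negative, Kit-positive (Lin-Kit+) BM cells of C57B6/J embryos at embryonic day 16.5, sorted by flow cytometry from mice of several litters pooled into the library, with no allele, transgene or treatment named in the labels. The main groups set beside them come from the same library, so that they share the strain, stage, sort and pool: TCell1 (539 cells), TCell4 (296 cells), HSPC1 (165 cells, a hematopoietic stem and progenitor cluster), the mast cell clusters (1804 cells) and all 3785 cells outside TCell2 and TCell3. A few values are also set beside HP libraries of the same strain and sort, namely the first E16.5 library and those of E18.5 embryos, newborns (P0) and adults. With 1 library there is no biological replicate. Every value below describes that library, no p-value is given, and 95% intervals cover counting error only.

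T cells descend from marrow or liver progenitors that settle in the thymus. The earliest thymic progenitors, called ETP or DN1, still express Kit and transcription factors of uncommitted progenitors such as Spi1, Lyl1 and Bcl11a. At the DN2 stage Notch signalling and Tcf7 and Gata3 turn on Il2ra and then Bcl11b. At DN3 the recombinase genes Rag1 and Rag2, the surrogate chain Ptcra and the CD3 chains allow a rearranged T cell receptor (TCR) beta chain to be tested, and Cd4, Cd8 and Trac follow later.

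Levels are unique molecular identifiers (UMIs) summed over the cells of a group and given as counts per 1000000 UMIs (CPM), with exact Poisson 95% intervals in parentheses. The median cell had 22993.5 UMIs in TCell2 and 27518 in TCell3, against 18052 in TCell1 and 20349.5 in TCell4, and the library held 95833532 UMIs. Of the barcodes of this library, 77 also occur in another library of the series, 17 of them in TCell2 or TCell3. A ratio compares the CPM of a pair of groups, and a gene is called higher or lower where the ratio was at least 2 in that direction, among genes with at least 50 UMIs over both groups. As the clusters were themselves built from these genes, the ratios describe the clusters and test nothing.

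The label T cell was checked against 14 T cell identity genes. Each of them had UMIs in the members. Their summed level was 7505 CPM in TCell2 and 8216 CPM in TCell3, below the 11231 CPM of TCell1 and the 11188 CPM of TCell4, and above the 1916 CPM of HSPC1 and the 512 CPM of mast cells. A large part of these sums in the members came from Trbc2. Against the rest of the library, other T clusters included, Tcf7, Gata3, Trbc1 and Trbc2 were at least 2-fold higher, of 14 compared. Cd3d and Ptcra were at least 2-fold lower, and the median log2 ratio was 0.34. Over all genes the shares were 3.32% and 16.2%. The constant gene Trbc2 of the TCR beta chain was at no lower a level than in the neighbouring T clusters, at 2792 CPM (2761 to 2823) in TCell2 and 2778 CPM (2749.9 to 2807) in TCell3, against 2399 CPM in TCell1 and 2187 CPM in TCell4. Trac, the constant gene of the alpha chain, was near 0 in all 4 clusters, at 0.163 CPM in TCell2 and TCell3 together. Transcripts of TCR constant genes were not limited to T clusters. The 7 such genes summed to 5156 CPM in TCell2 and 5376 CPM in TCell3, against 1393 CPM in HSPC1 and 202 CPM in mast cells. Trbc1 and Trbc2 are close copies, as are many gamma chain and histone genes, and the division of reads between such copies is uncertain.

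The same codes went against their name in the first E16.5 library. There 1 cell of 560 carried TCell2 and 4 carried TCell3. These 5 cells held 124915 UMIs, none of which came from Cd3d, Cd3e, Cd3g, Trbc1, Trbc2, Tcf7, Gata3, Bcl11b or Il2ra, so that each gene lay under 24.0 CPM (3 counts of that total). They held 36 UMIs of Mpo (288 CPM), the granule peroxidase of myeloid progenitors, and 19 of Spi1 (152 CPM). They are kept out of all values below.

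Of the 3 genes named as markers of the clusters, Hbb-bt and Fgf3 differed most between TCell2 and TCell3 and the other T clusters, and Podxl less. Hbb-bt encodes an adult-type beta globin (chr7:103812524-103813923, minus strand, GRCm38.p6). Its level was 285 CPM (275 to 295) in TCell2 and 213 CPM (206 to 221) in TCell3, against 29.1 CPM (26.0 to 32.5) in TCell1, 8.14 CPM (6.10 to 10.6) in TCell4 and 108 CPM (96.6 to 119.6) in HSPC1. Both clusters lay above these groups, at a CPM ratio of 8.47 (7.56 to 9.52) against TCell1 and 30.3 (23.1 to 40.4) against TCell4. Fgf3, which encodes a secreted fibroblast growth factor (chr7:144838612-144843348, plus strand), was at 35.2 CPM (31.8 to 38.8) in TCell2 and 37.0 CPM (33.8 to 40.4) in TCell3, where the intervals overlap. It was at 3.06 CPM (2.10 to 4.29) in TCell1, 0.614 CPM (0.167 to 1.57) in TCell4 and 4.37 CPM (2.39 to 7.33) in HSPC1. Podxl, a sialomucin of the cell surface (chr6:31519493-31563937, minus strand), was low in all of them, at 3.27 CPM (2.30 to 4.51) in TCell2, 4.53 CPM (3.46 to 5.84) in TCell3, 2.41 CPM (1.57 to 3.53) in TCell1 and 1.84 CPM (0.952 to 3.22) in TCell4. The intervals of TCell2, TCell1 and TCell4 overlap for Podxl, while that of TCell3 lies above that of TCell4. For both clusters together the ratio was 1.64 (1.06 to 2.64) against TCell1, 2.14 (1.17 to 4.29) against TCell4 and 5.75 (4.04 to 8.28) against all other cells of the library, the last 2 past 2-fold.

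**Figure D1:**
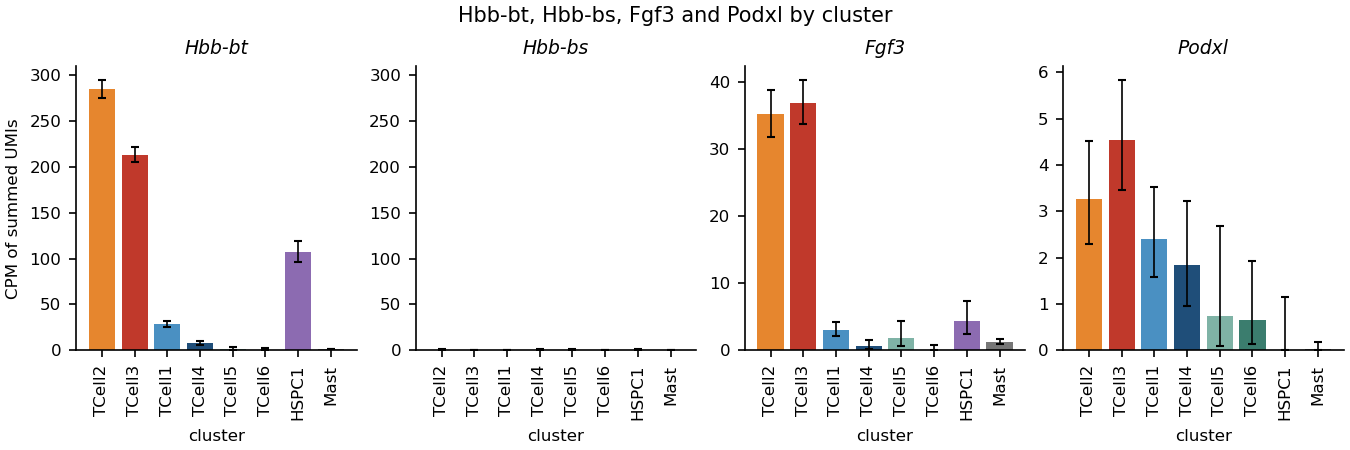
CPM of summed UMIs (vertical axes, linear, one scale per gene except that Hbb-bs shares the axis of Hbb-bt) for Hbb-bt, Hbb-bs, Fgf3 and Podxl in 8 groups of cells of the second E16.5 HP library. Bars are CPM and error bars exact Poisson 95% intervals. TCell2 and TCell3 stand above the rest for Hbb-bt and Fgf3, Hbb-bs has no visible bar, and the bars of Podxl stay under 5 CPM throughout.

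The globin UMIs were counted almost wholly to Hbb-bt, with little alpha or embryonic globin. In the 967 cells, 6044 UMIs came from Hbb-bt and 11 from Hbb-bs, the neighbouring adult beta globin gene (chr7:103826523-103827928, minus strand). The alpha globin genes Hba-a1 and Hba-a2 and the embryonic gene Hbb-y were at 0.163, 0 and 0.408 CPM. Klf1, a transcription factor of the erythroid lineage, was at 1.71 CPM. Of the 10 measured genes of the erythroid list, 3 had no UMI in the members. Car2, a carbonic anhydrase on the same list, was higher together with Hbb-bt, at 9.21 CPM in the members against 0.834 CPM in TCell1 (ratio 11.0 (5.72 to 24.5)) and 0.922 CPM in TCell4 (ratio 9.99 (4.52 to 27.5)). Across all cells of the adult HP library Hbb-bs stood above Hbb-bt (445 and 278 CPM), while at E18.5 and P0 Hbb-bt stood far above Hbb-bs (104 against 1.42 CPM, and 97.3 against 5.62 CPM). The coding sequences of the beta globin genes are much alike, and how the authors' counting divided reads between them is not known, so that the split between Hbb-bt and Hbb-bs is uncertain.

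The promoters of these genes are shown so that Hbb-bt can be read beside its nearly uncounted neighbour and beside Fgf3. Each runs from 250 bases before the gene's start to 50 bases after it, 5′ to 3′ on the gene's strand (RefSeq, GRCm38.p6). Capitals mark matches, on either strand, to any of 7 short motifs: the core promoter box TATAAA, the site AGATAA read by GATA factors, the box CCACACCC read by Klf factors, the box CCAAT read by NF-Y, the site TGTGGT read by RUNX factors, the site GAGGAA read by PU.1, and the site CTTTGA read by TCF and LEF factors.
Hbb-bt, chr7:103813874-103814173, minus strand: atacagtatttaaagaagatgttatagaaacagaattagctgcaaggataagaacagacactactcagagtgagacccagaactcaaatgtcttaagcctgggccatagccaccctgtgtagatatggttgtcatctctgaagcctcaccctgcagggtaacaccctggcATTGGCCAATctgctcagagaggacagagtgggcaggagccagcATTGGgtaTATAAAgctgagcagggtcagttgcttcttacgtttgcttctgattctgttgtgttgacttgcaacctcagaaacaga
Hbb-bs, chr7:103827879-103828178, minus strand: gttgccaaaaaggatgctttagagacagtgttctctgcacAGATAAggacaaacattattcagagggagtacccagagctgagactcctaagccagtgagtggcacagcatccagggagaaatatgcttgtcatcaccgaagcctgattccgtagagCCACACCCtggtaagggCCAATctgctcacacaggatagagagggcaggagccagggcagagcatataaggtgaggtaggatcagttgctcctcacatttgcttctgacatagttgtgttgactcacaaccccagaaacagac
Fgf3, chr7:144838362-144838661, plus strand: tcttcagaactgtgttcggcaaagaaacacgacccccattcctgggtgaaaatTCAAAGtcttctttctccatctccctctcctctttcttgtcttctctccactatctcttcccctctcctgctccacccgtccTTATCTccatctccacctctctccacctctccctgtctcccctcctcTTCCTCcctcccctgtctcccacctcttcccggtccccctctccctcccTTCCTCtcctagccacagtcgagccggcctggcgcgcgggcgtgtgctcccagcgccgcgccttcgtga
The 2 globin promoters matched at 223 of 308 aligned positions, or 72.4%. The Hbb-bt promoter held TATAAA 28 bases before the start and 3 matches to CCAAT, of which the pair in ATTGGCCAAT lie side by side on opposite strands. The Hbb-bs promoter held no TATAAA, but 1 match each to AGATAA, CCACACCC and CCAAT. The Fgf3 promoter held 2 matches to GAGGAA and 1 each to AGATAA and CTTTGA. Among all mouse promoters of this length in the table, TATAAA occurs in 13.6% of 32851, AGATAA in 11.2%, CCACACCC in 3.56%, CCAAT in 37.4%, GAGGAA in 28.3% and CTTTGA in 16.0%. These matches describe letters, not bound sites.

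To compare cells of unequal depth, each cell was thinned to 5000 UMIs, which left out 10 of the 967 cells. Hbb-bt then had a UMI in 31.4% (27.3 to 35.7%) of TCell2 and 25.6% (21.8 to 29.8%) of TCell3, against 5.95% of TCell1, 3.04% of TCell4 and 0.391% of mast cells, which should lack it. Without thinning the shares were 46.5% and 47.6%. The gene was very uneven among the members, with 83 of 957 thinned cells (8.67%) at 5 UMIs or more holding 70.4% of its UMIs, and the highest cell at 36. Fgf3 had a UMI in 11.0% (8.36 to 14.2%) of TCell2 and 13.4% (10.5 to 16.8%) of TCell3, against 0.558% of TCell1, 0.338% of TCell4 and 0.783% of mast cells. No member held more than 4 UMIs of it. Of the 957 cells, 44 held both genes, 229 held Hbb-bt alone, 73 held Fgf3 alone and 611 held neither. Podxl had a UMI in 2.08% (1.00 to 3.79%) of TCell2, 1.26% (0.464 to 2.72%) of TCell3, 0.929% of TCell1, 1.01% of TCell4 and 0 of 1789 mast cells, and no order between the T clusters can be read from so few cells.

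Against TCell1 and TCell4, TCell2 and TCell3 expressed more of the genes of the earliest T progenitors and less of the DN3 genes. Against TCell1, 233 of 10658 genes were at least 2-fold higher (2.19%) and 441 at least 2-fold lower (4.14%). Of the 15 ETP and DN1 genes that could be compared (of 16), 12 were at least 2-fold higher and none at least 2-fold lower, with a median log2 ratio of 1.59 where the median over all genes was 0.00. Of the 17 DN3 and pre-TCR genes compared, none was at least 2-fold higher and 13 at least 2-fold lower, with a median of -1.37. Against TCell4, where 415 of 10424 genes were at least 2-fold higher (3.98%) and 440 at least 2-fold lower (4.22%), 13 ETP and DN1 genes were higher and 12 DN3 genes lower, with medians of 1.98 and -1.38. The rise held against these T clusters only. Against the rest of the library, 3 of 16 ETP and DN1 genes were at least 2-fold higher and 7 at least 2-fold lower, with a median of -0.66. Over all genes the shares there were 3.32% and 16.2%. The list summed to 396 CPM in the members, 146 in TCell1, 126 in TCell4 and 1534 in HSPC1.

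Among the ETP and DN1 genes, Spi1, which encodes the myeloid and progenitor factor PU.1, was at 66.5 CPM (61.8 to 71.4) in TCell2 and 47.4 CPM (43.7 to 51.2) in TCell3. TCell1 held 18.9 CPM and TCell4 13.4 CPM, so that the ratio was 2.97 (2.57 to 3.46) against TCell1 and 4.21 (3.38 to 5.29) against TCell4. Lyl1, a basic helix-loop-helix factor of early progenitors, was at 64.6 and 60.8 CPM against 18.5 and 17.7 CPM. Bcl11a, a zinc finger factor of lymphoid progenitors, was at 76.2 and 57.9 CPM against 22 and 17.0 CPM. Within each of these genes TCell2 was the highest of the 4 clusters and TCell3 the second. The progenitor antigen Cd34 was at 36.2 and 28.9 CPM against 6.48 and 5.84 CPM. Flt3, the cytokine receptor of multipotent and lymphoid-primed progenitors, was an exception, at 1.06 and 0.680 CPM in TCell2 and TCell3 and 56.5 CPM in HSPC1, and it was too low to be compared among the T clusters. Kit, an antigen used in the sort, was at 45.8 CPM in the members, 31.4 in TCell1 and 35.3 in TCell4, a ratio under 2.

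Among the DN3 genes, Ptcra, the invariant partner of the TCR beta chain, was at 51.1 CPM (47.0 to 55.5) in TCell2 and 80.2 CPM (75.4 to 85.2) in TCell3 against 526 CPM (512 to 539.7) in TCell1 and 599 CPM (580.4 to 618) in TCell4. Rag1, which cuts the receptor genes, was at 42.1 and 54.4 CPM against 335 and 315 CPM. Lef1, a TCF family factor, was at 30.8 and 47.4 CPM against 262 and 278 CPM. All 3 were several-fold lower in both members, and TCell3 lay above TCell2 in each. Of the CD3 chains, Cd3d was at 136 and 218 CPM against 1044 and 1264 CPM, and Cd3e at 154 and 205 CPM against 497 and 472 CPM. Cd3g differed least, at 1848 and 2242 CPM against 3269 and 3332 CPM, a ratio under 2. Dntt, which adds untemplated bases to receptor junctions, was at 0.0408 CPM in the members, and no difference from TCell1 or TCell4 is read from it.

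The DN2 genes lay between these lists. Of 15 compared against TCell1, Zbtb16 was at least 2-fold higher and Bcl11b at least 2-fold lower, and the median log2 ratio was -0.33. Il2ra, the alpha chain of the interleukin 2 receptor, was at 354 CPM in TCell2, 425 in TCell3, 462 in TCell1 and 437 in TCell4. Tcf7 was at 441, 348, 407 and 356 CPM in the same order, and Gata3 at 84.6, 77.9, 65.7 and 56.7 CPM. Bcl11b, the factor that closes other fates to T precursors, was at 172 CPM (164 to 179.6) in TCell2 and 232 CPM (224 to 240.1) in TCell3, and at 480.3 and 467 CPM in TCell1 and TCell4. Zbtb16, the PLZF factor of innate-like lymphocytes, was at 15.4 CPM in the members against 6.30 and 2.30 CPM.

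**Figure D2:**
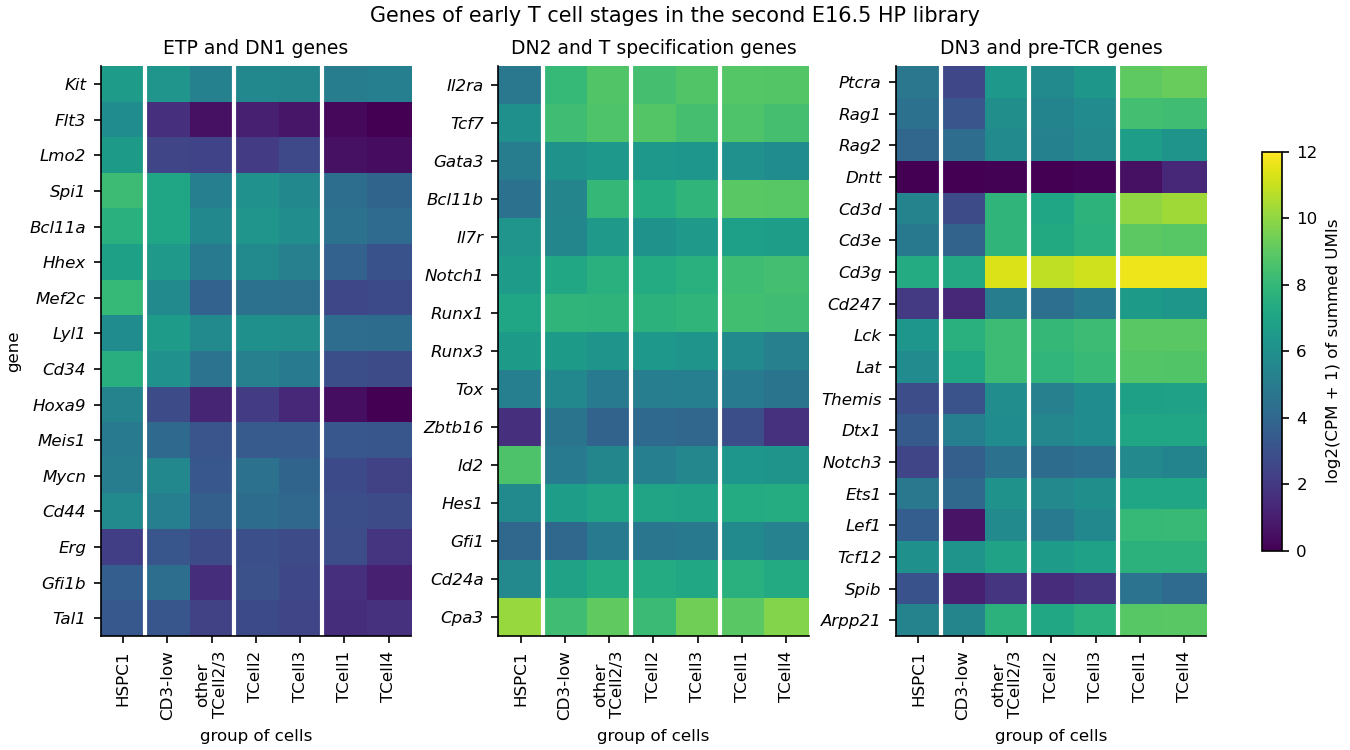
Colour gives log2(CPM + 1) of summed UMIs for the genes (rows) of 3 lists of T cell stages in 7 groups of cells (columns) of the second E16.5 HP library, white lines separating HSPC1, the 2 subgroups of the members, the 2 clusters and the other T clusters. Most ETP and DN1 genes are darker in TCell1 and TCell4 than in TCell2 and TCell3, most DN3 genes are brighter there, and the CD3-low subgroup is dark for most DN3 genes.

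Histone genes of both clusters together went different ways against TCell1 and TCell4. Of 46 histone genes compared, 13 were at least 2-fold higher than in TCell1 and none lower, but 1 was higher and 32 were lower than in TCell4. The clusters themselves differed: the summed histone level was 492 CPM in TCell2, below the 782 CPM of TCell1, and 2561 CPM in TCell3. Of 10 mast genes compared, 2 were at least 2-fold lower than in TCell1 and 8 lower than in TCell4, and none was higher. Of the 13 genes of the Notch pathway compared against TCell1, none was at least 2-fold higher and 4 (Notch3, Dtx1, Heyl and Ptcra) were lower, while Notch1 was at 182 CPM in the members and 311 in TCell1. The TCR constant genes of the gamma and delta chains were at similar levels, with Tcrg-C1 at 736 CPM against 609 and 483 CPM and Trdc at 151 against 223 and 242 CPM. Tcrg-C4 was lower, at 22.3 against 55.1 CPM in TCell1. Of the genes that follow beta selection, Cd4 was at 0.0408 CPM and Cd8a had no UMI in the members. Of 8 compared against TCell1, none was at least 2-fold higher and 3 (Cd8b1, Cd2 and Cd28) were lower. Of 6 compared against TCell4, Cd5, a brake on receptor signalling, and Nr4a1, an early response gene, were at least 2-fold higher and Cd28 lower, with a median log2 ratio of 0.54. Of 28 chaperonin and nucleolar genes, which serve protein folding and ribosome assembly, 27 lay above TCell1 and 28 above TCell4, but Mycn alone reached 2-fold and the medians were 0.36 and 0.45 on the log2 scale. The antiviral membrane protein gene Ifitm1 was at 1411 CPM (1389 to 1433) in TCell2 and 1399.7 CPM (1379.6 to 1420.0) in TCell3, against 724 CPM in TCell1 and 388 in TCell4. Of 15 adhesion and homing genes compared against TCell1, Itgb7 and Cd44 were at least 2-fold higher, and Itgae and Ccr9 at least 2-fold lower. Ccr9, a chemokine receptor for homing to the thymus, was at 1.22 CPM in the members and 7.97 in TCell1.

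By size of the ratio for both clusters together, Hbb-bt, Lyl1, Igfbp4, Bcl11a, Nrgn, Napsa, Spi1, Hist1h1b, Hist1h1a and Angpt1 led the genes higher than in TCell1. Hist1h1b and Hist1h1a were lower in TCell2 (69.7 and 13.7 CPM) than in TCell1 (190 and 26.0 CPM), and higher in TCell3 (967 and 127 CPM). Nrgn, which encodes the calmodulin-binding protein neurogranin, was at 272 CPM against 90.5 CPM, and Angpt1, a ligand of the receptor Tie2, at 51.1 against 17.9 CPM. Against TCell4 the leading genes were Hbb-bt, Igfbp4, Nrgn, Angpt1, Spi1, Bcl11a, Ifitm1, Lyl1, Napsa and Hist1h2bc. The lowest ratios against TCell1 were those of Ifi204, Arl5c, Dgkeos, Sh2d1a, 9130015A21Rik, Ptcra, Ctla4, Rag1, Lef1 and Hivep3. Sh2d1a, an adaptor of lymphocyte signalling, was at 12.6 CPM against 109 CPM, and the inhibitory receptor gene Ctla4 at 9.70 against 69.8 CPM. Mast cell genes also differed: the summed level of 11 mast genes was 725 CPM in TCell2, 2079 in TCell3, 1855 in TCell1 and 3344 in TCell4, with none of them at 0 in the members. Without the cells in which 6 mast genes exceeded 0.25% of UMIs, 271 genes were at least 2-fold higher and 439 lower than in TCell1, and 528 higher and 383 lower than in TCell4.

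The members were not uniform. When the library was clustered again from its counts, 219 of the 967 cells (22.6%) fell into 1 new cluster of 302 cells together with 80 HSPC1 cells and 3 others, while most of the remaining members fell into 2 further new clusters. The 219 cells came from both codes, 134 from TCell2 (27.6% of it) and 85 from TCell3 (17.7%). They are called CD3-low here, after the CD3 genes, which were lower in them than in the other members. The split was made after the data had been seen, and from the same genes, so that the values that follow describe it. The CD3-low cells were as deep as the other members, with a median of 25463 UMIs against 25173.

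The CD3-low cells carried transcripts of the TCR beta constant genes with little CD3. Whether these came from rearranged genes was not tested. Cd3g was at 149 CPM (139 to 159.7) in them and 2610.1 CPM (2587 to 2633) in the other 748 members. Cd3d was at 6.02 CPM (4.15 to 8.46) against 231 CPM (224 to 237), and Cd3e at 13.0 CPM (10.1 to 16.3) against 229.6 CPM (223 to 236). Ptcra was at 4.93 against 84.6 CPM, Bcl11b at 42.3 against 251 CPM, and Lef1 at 0.547 (3 UMIs) against 51.0 CPM. Trbc1 and Trbc2 hardly differed, at 1138 against 1148 CPM and 2757 against 2792 CPM. The other 4 of the 6 TCR constant genes compared, Trdc, Tcrg-C1, Tcrg-C2 and Tcrg-C4, were at least 2-fold lower in the CD3-low cells. The median log2 ratio over the 6 was -1.32. The DN2 genes Tcf7 (314 against 413 CPM), Gata3 (70.6 against 84.0) and Il2ra (264 against 429) were within 2-fold. Against the other members, 245 of 10088 genes were at least 2-fold higher (2.43%) and 356 at least 2-fold lower (3.53%). Of the DN3 genes 13 of 17 were at least 2-fold lower, with a median log2 ratio of -2.29, and of the ETP and DN1 genes 11 of 15 were at least 2-fold higher, with a median of 1.55 beside 0.04 over all genes.

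Some progenitor genes and a pair of early myeloid genes were higher in the CD3-low cells than in the other members. Of the 7 genes compared of the HSPC list, Cd34 and Meis1 were at least 2-fold higher, Slamf1 was at least 2-fold lower and 3 of 7 were below 1, with a median log2 ratio of 0.29. Of the 7 myeloid genes compared, Mpo and Prtn3 were at least 2-fold higher, C1qb was at least 2-fold lower, and 5 of 7 were above 1 in the ratio. Mpo was at 84.3 CPM (76.8 to 92.4) in the CD3-low cells and 8.87 CPM (7.58 to 10.3) in the other members, and Prtn3, a neutrophil serine protease, at 55.7 CPM (49.6 to 62.3) against 9.02 CPM (7.73 to 10.5). Elane, the elastase of the same granules, was at 0.547 and 0.262 CPM. Spi1 was at 129.9 against 35.0 CPM, Mef2c at 50.7 against 12.8 CPM, and Cd34 at 66.1 against 22.6 CPM. The markers Fgf3 and Hbb-bt were higher as well, as was Car2 (19.5 against 6.24 CPM): Fgf3 was at 68.8 CPM (62.0 to 76.1) against 26.8 CPM (24.5 to 29.2), and Hbb-bt at 462 CPM (444 to 480.2) against 184 CPM (178 to 191). Of the killer cell granule genes, Gzma was lower (357 against 1866 CPM) and Gzmb higher (25.5 against 6.87 CPM). Mast genes moved with the split, as Cma1, a mast cell chymase, was at 81.4 CPM in the CD3-low cells and 681 in the others, which held all 22 members with over 0.25% of mast UMIs. Without those members the log2 ratio of Cma1 was -0.08, where it was -3.06 with them, and 273 genes were at least 2-fold higher and 316 at least 2-fold lower. B lymphoid genes moved with the split as well: of 6 compared, Cd79a, Vpreb1, Vpreb3 and Igll1 were at least 2-fold lower in the CD3-low cells, with a median log2 ratio of -2.08, and their part in the other differences was not tested. The same 4 genes were at least 2-fold lower in all members than in TCell4, of 7 compared there, while against TCell1 none of 6 compared was at least 2-fold lower and Vpreb3 was at least 2-fold higher.

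Per cell, Cd3g had a peak at 0 and a broad range above it. In thinned cells, Cd3g was at 0 in 23.1% of TCell2 and 16.8% of TCell3, against 0.372% of TCell1, none of 296 TCell4 cells (3 counts of that total allow a share of up to 1.01%) and 85.5% of HSPC1. The median was 8 UMIs in TCell2 and 12 in TCell3. The cells at 0 and the CD3-low cells, which were set by clustering, overlap in part. Of 217 thinned CD3-low cells 160 held 0, 39 held 1 to 3 and 18 held more than 3. Of the 740 other members 31 held 0, 66 held 1 to 3 and 643 held more. Fgf3 and Hbb-bt were found least often in the members with more than 3 Cd3g UMIs. The members with 0 and with 1 to 3 Cd3g UMIs are too few for an order to be read between them. Fgf3 had a UMI in 19.9% of the 191 members with no Cd3g, 27.6% of the 105 members with 1 to 3 Cd3g UMIs and 7.56% of the 661 members with more. For Hbb-bt the shares were 36.1%, 40.0% and 24.5%.

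**Figure D3:**
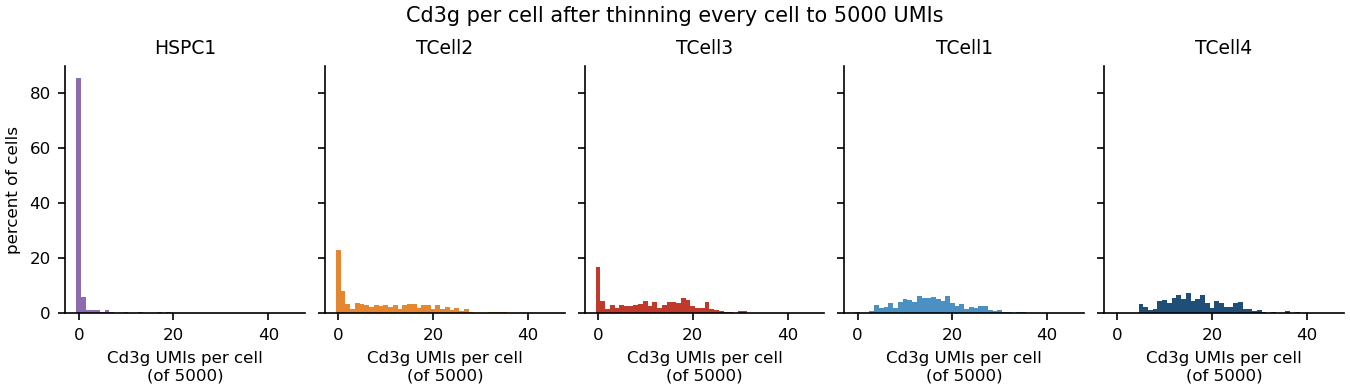
Percent of cells (vertical axis) by the number of Cd3g UMIs per cell (horizontal axis) after every cell was thinned to 5000 UMIs, in HSPC1, TCell2, TCell3, TCell1 and TCell4. TCell2 and TCell3 show a bar at 0 (23.1% and 16.8% of cells) beside a broad range of positive cells, TCell1 and TCell4 have almost no cell at 0, and HSPC1 has 85.5% of its cells there.

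The HSPC1 cells that clustered with the CD3-low cells differed from them in other genes. Between the 219 and the 80 cells, 202 of 8171 genes were at least 2-fold higher in the CD3-low cells (2.47%) and 278 at least 2-fold lower (3.40%). Fgf3 was at 68.8 CPM in the CD3-low cells and had 1 UMI in the HSPC1 cells, a ratio of 115 (20.5 to 4546). Tcrg-C2 was at 119.7 CPM (111 to 129) against 1.80 CPM (0.371 to 5.25), and Il2ra at 264 CPM (251 to 278) against 17.4 CPM. In the other direction, Flt3 was at 2.19 against 68.9 CPM, Ccr9 at 0.912 against 126 CPM, the class II invariant chain gene Cd74 at 2.37 against 177 CPM and the immunoglobulin gene Ighm at 6.93 against 169 CPM. Hbb-bt was higher in the CD3-low cells, at 462 against 164 CPM (ratio 2.82 (2.49 to 3.21)), and Car2 was lower, at 19.5 against 137 CPM. Of the TCR constant genes 5 of 6 were at least 2-fold higher in the CD3-low cells, and of the ETP and DN1 genes 7 of 16 were at least 2-fold lower. Trbc2 was the TCR constant gene within 2-fold, at 2757 against 1752 CPM. Several progenitor and myeloid genes that were higher in the CD3-low cells than in other members were higher still in these HSPC1 cells, namely Cd34 (66.1 against 259.5 CPM), Mef2c (50.7 against 362), Mpo (84.3 against 201) and Prtn3 (55.7 against 137). Of 13 DN3 genes compared, Cd3e, Cd3g, Lat and Dtx1 were at least 2-fold higher in the CD3-low cells, while Ptcra, Rag1 and Cd3d (6.02 against 21.6 CPM) were at least 2-fold lower.

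Antibody counts were not used to build the clusters, and they followed the same order for CD90.2, the surface product of Thy1. The CD90.2 antibody had 34.5 ± 33.6 counts per cell in TCell2 (mean ± SD over cells) and 52.5 ± 54.8 in TCell3, against 108 ± 44.2 in TCell1 and 131 ± 53.0 in TCell4. Mast cells, which give a background, had 7.51 ± 35.4, with a median of 2. Within the members the CD3-low cells had a median of 5 counts and the others 48, while the medians were 2 in HSPC1, 103 in TCell1 and 124 in TCell4. Thy1 UMIs stood at 23.2 CPM in the CD3-low cells and 184 CPM in the others. A centered log-ratio (CLR) over 1 was reached by 52.1% (47.5 to 56.6%) of TCell2, 69.0% (64.7 to 73.1%) of TCell3, 98.7% (97.3 to 99.5%) of TCell1 and 4.57% (2.21 to 8.24%) of the CD3-low cells. The median total of antibody counts per cell also differed, from 84.5 in TCell2 and 108 in TCell3 to 162 in TCell1 and 186 in TCell4, and CD90.2 made up a median of 36.8% of it in the members, 63.8% in TCell1, 66.6% in TCell4 and 7.32% in the CD3-low cells.

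Other antibodies separated the members less. CD48 had means of 13.0 and 15.7 counts in TCell2 and TCell3 and 13.3 and 13.8 in TCell1 and TCell4, against 2.92 in mast cells. CD27, a receptor of the tumour necrosis factor family, had 5.05 and 5.77 counts against 4.44 and 4.24, and 6.29 in the CD3-low cells. CD43 had 27 and 31.0 against 29.0 and 30.8. The stem cell antigens CD150 and Sca-1 were lower than in TCell1 and TCell4, with CD150 at 0.934 and 1.04 against 1.56 and 1.80 counts, and Sca-1 at 1.31 and 1.52 against 1.97 and 2.27. These means are near 1 count per cell. CD16/32, bound strongly by mast cells (29.8 counts), had a mean of 1.02 counts in TCell2 and 2.17 in TCell3, with a median of 1 in both. A CLR over 1 was reached by 20 TCell3 cells (4.16%) and 0 TCell2 cells. The CD117 antibody, directed at Kit, had no count in any cell of the library.

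**Figure D4:**
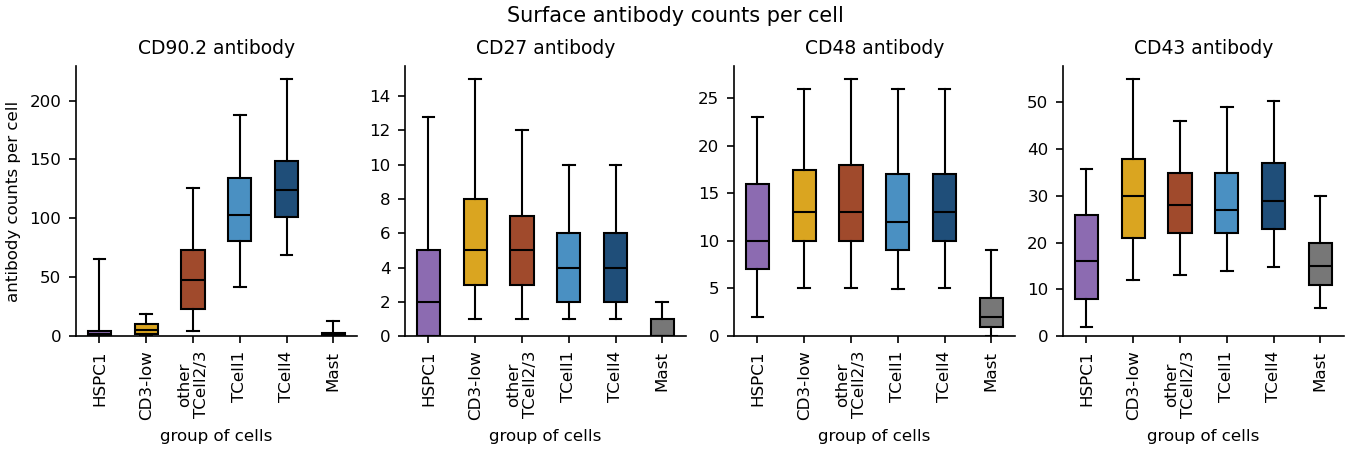
Antibody counts per cell (vertical axes, linear) for CD90.2, CD27, CD48 and CD43 in HSPC1, the CD3-low cells, the other TCell2 and TCell3 cells, TCell1, TCell4 and mast cells. Boxes span the quartiles with the median as a line, and whiskers reach the 5th and 95th percentiles of cells. The CD90.2 box of the CD3-low cells (median 5) lies beside that of HSPC1 (median 2), below the other members (median 48), while CD27, CD48 and CD43 overlap among the T cell groups.

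Most histone genes, and some genes of DNA synthesis and division, were higher in TCell3 than in TCell2. Of 10088 genes, 257 were at least 2-fold higher in TCell3 (2.55%) and 27 at least 2-fold lower (0.268%). Of 41 histone genes compared, 33 were at least 2-fold higher and 1 lower, and the summed level of the 63 measured histone genes was 492 CPM in TCell2 and 2561 CPM in TCell3, a ratio of 5.20 (5.06 to 5.35). TCell1 had 782 CPM and TCell4 4183 CPM. Hist1h1b, a linker histone of dividing cells, was at 69.7 CPM (64.9 to 74.7) in TCell2 and 967 CPM (950.3 to 984) in TCell3. Top2a, the topoisomerase that untangles replicated chromosomes, was at 106 against 486 CPM and had a UMI in 29.5% and 80.5% of thinned cells. Cdk1, the kinase that drives mitosis, was at 75.4 against 264 CPM. Most replication-dependent histone messages have no poly(A) tail, and the method captures transcripts by that tail.

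The lists of the cell cycle moved less than these genes. The 36 S phase genes summed to 4144 CPM in TCell2 and 5391 CPM in TCell3 (ratio 1.30, 1.29 to 1.32), with 7 of 36 at least 2-fold higher. The 50 G2 and M phase genes summed to 7594 and 9745 CPM (ratio 1.28, 1.27 to 1.29), with 15 of 50 at least 2-fold higher. Not every division gene was higher: Ccnb2, a cyclin of mitosis, was at 221 CPM (213 to 230.0) in TCell2 and 115 CPM (109 to 121) in TCell3, and Cenpa, the histone of centromeres, at 285 CPM (275 to 295) and 153 CPM (147 to 160.1). Hist1h2bc, too, was lower in TCell3 (86.9 against 28.6 CPM). The deposited phase calls placed 62.6% of TCell2 and 59.9% of TCell3 in S, 36.0% and 39.5% in G2 and M, and 1.44% and 0.624% in G1. According to the methods, cell cycle scores were regressed out before clustering.

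**Figure D5:**
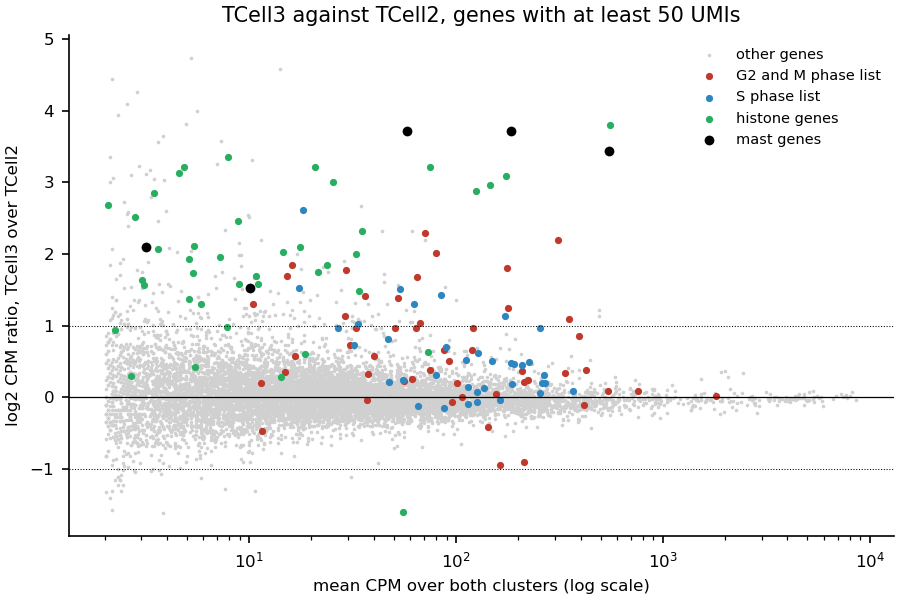
Log2 CPM ratio of TCell3 over TCell2 (vertical axis) against the mean CPM over both clusters (horizontal axis, log scale) for 10088 genes with at least 50 UMIs. Most histone genes (green), and 7 of 36 genes of the S phase (blue) and 15 of 50 of the G2 and M phase (red) lists, lie above the upper dotted line of a 2-fold ratio, as do 5 mast genes (black), while 27 genes lie at or below the lower dotted line.

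Stage genes differed little between the pair. All 17 DN3 genes compared were above 1 in the ratio of TCell3 to TCell2, none by 2-fold, with a median log2 ratio of 0.38 beside 0.01 over all genes. Of 15 ETP and DN1 genes 13 were below 1, with a median of -0.25, and Hoxa9 alone reached 2-fold. Of 28 chaperonin and nucleolar genes 27 were below 1, with a median of -0.18. The share of CD3-low cells was 27.6% in TCell2 and 17.7% in TCell3.

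Mast granule genes and most B lymphoid genes compared were higher in TCell3, while of 7 myeloid genes compared Lyz2 and C1qb were at least 2-fold higher and 3 were below 1, and of 2 erythroid genes compared none was past 2-fold. All 5 mast granule genes compared were at least 2-fold higher, with Cma1 at 86.9 against 940.1 CPM, Tpsb2, a tryptase, at 24.6 against 322 CPM, and Hdc, the enzyme that makes histamine, at 7.69 against 101 CPM. They came from few cells: 6 mast genes exceeded 0.25% of the UMIs in 19 TCell3 cells (3.95%) and 3 TCell2 cells (0.617%), and the median cell had 0.0113% in both clusters. In 15 TCell1 cells (2.78%) and 18 TCell4 cells (6.08%) the same level was passed. Without these cells the log2 ratio of TCell3 to TCell2 was -0.01 for Cma1, 0.27 for Tpsb2, 0.15 for Hdc and 0.00 for Cpa3, a carboxypeptidase of mast cells and early T cells that stood at 1.22 with them. It kept its size for the histone gene Hist1h1b (3.84), and 193 genes were at least 2-fold higher and 27 lower. The ratio of summed CPM was then 1.33 for the S phase list and 1.31 for the G2 and M phase list. Of 6 B lymphoid genes compared, Cd79a, Vpreb1, Vpreb3 and Igll1 were at least 2-fold higher in TCell3, and the log2 ratios without those cells were 2.65 for Cd79a, 1.47 for Vpreb1 and 2.13 for Igll1. The list stood at 49.9 CPM in TCell2, 64.2 in TCell3 and 11677 in the B cell cluster. Clustering the library again put 2 TCell3, 2 TCell4 and 0 TCell2 cells with 178 cells of the B cell cluster. It also put 1 TCell3 and 0 TCell2 cells with 139 Mono/Mast cells. A new cluster led by 47 Mast1 cells held 16 TCell3, 15 TCell1, 12 TCell4 and 0 TCell2 cells. Among 78 Eos/Bas1 (eosinophil and basophil) cells lay 7 TCell3 and 1 TCell2 cells. A further 3 TCell3 and 0 TCell2 cells fell with 56 DC1 (dendritic) and 79 HSPC1 cells. With 347 Mast2ii cells fell 2 TCell3 and 0 TCell2 cells. Whether such cells carried the B lymphoid and myeloid differences, here, in the CD3-low split or against TCell4, was not tested. None of the mast or B lymphoid genes was at 0 in the members. Scrublet, a doublet caller, marked 20 cells of the library (0.421%), 5 of them in TCell3 and 0 in TCell2, and at so low a rate it did not work as a filter.

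Against all other cells of the library, 417 of 12561 genes were at least 2-fold higher (3.32%) and 2029 at least 2-fold lower (16.2%) in TCell2 and TCell3. Hbb-bt led the higher genes at a ratio of 20.6 (19.2 to 22.2), followed by Nrgn at 5.21 (5.00 to 5.42), Angpt1 at 4.70 (4.29 to 5.15) and Adgrg1, an adhesion receptor, at 4.12 (3.96 to 4.28). Tcrg-C1, Plekha7, Aldh1b1, Vamp5, Tmem121 and Ifitm3 completed the first 10. Adgrg1 was at 274 and 244 CPM in TCell2 and TCell3, 147 in TCell1 and 134 in HSPC1. Of the 10 lowest genes, Elane, Camp, S100a8, Ms4a3, S100a9, Stfa1, BC100530, Gm5483, Mcpt2 and Mcpt4, most are genes of granulocytes or mast cells. As 1804 of the 3785 other cells were mast cells, leaving out cells over 0.25% of mast UMIs changed these counts to 126 higher and 1337 lower, and turned the log2 ratio of Mcpt4 from -6.30 to 0.21.

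Few cells of any of these clusters lay in the gates for stem cell antigens. The gate for phenotypic long-term stem cells (phLT-HSC: Sca-1 and CD150 over a CLR of 1, CD48 and CD135 not) held 2 TCell2 and 3 TCell3 cells, or 0.517% (0.168 to 1.20%) of the members, against 8 of 539 TCell1 cells (1.48%) and 5 of 296 TCell4 cells (1.69%), of 28 among the 4752 cells of the library, and 0 of 165 HSPC1 cells. TCell1 to TCell6 together held 22 of the 28, and 2141 of the 4752 cells of the library. The paper likewise placed many of its E16.5 phLT-HSCs among T cell clusters. The gate for phMPP2, which differs in requiring CD48, held 4 TCell2 and 2 TCell3 cells, or 0.620% (0.228 to 1.35%), against 16 in TCell1 (2.97%), 17 in TCell4 (5.74%) and 5 in HSPC1 (3.03%). Of the 64 cells of the library in this gate, 42 lay in TCell1 to TCell6 and 10 in the Mono/Mast cluster. The paper placed most of its E16.5 phMPP2s in a mono/mast cluster, so its set of cells and that of this gate may differ. The counts turned on the level: at a CLR of 0.75 the phMPP2 gate held 29 TCell2 and 23 TCell3 cells, and at 1.5 both gates held 0 cells of either cluster. At a CLR of 1, no CD3-low cell lay in either gate, which allows a share of up to 1.37% (3 counts of 219). The deposited hscScore, a score of similarity to stem cells, had medians of 0.0105 in TCell2 and -0.0009 in TCell3, against 0.0209 in TCell1, -0.0009 in TCell4 and 0.0325 in HSPC1.

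Neither code was used for any cell after E16.5. Of the 3477 E18.5 cells, the 6208 P0 cells and the 5985 adult cells, 0 were coded TCell2 or TCell3. By 3 counts of each total, the codes could reach shares of up to 0.0863%, 0.0483% and 0.0501%. Codes were given by stage, so these limits bound the use of a label and not the share of such cells. The T cell codes of those libraries held 65 cells coded TCell5 at E18.5, 68 so coded at P0, and 109 coded T/NK in adult BM. Fgf3 was at 11.8, 16.1 and 18.0 CPM in them, against 36.1 CPM in the members, and Hbb-bt at 4.54, 6.73 and 8.00 CPM against 246 CPM. The levels of the later T cell codes rest on few cells. Their Fgf3 levels lay above those of TCell1 and TCell4 at E16.5, so that Fgf3 UMIs were not confined to the members. As cells were annotated by stage, and 1 library was made of each later stage, the difference between stages cannot be told apart from that between libraries.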

How the data were processed

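The second E16.5 HP library was analysed, with the other 4 HP libraries set beside it. The authors deposited UMI counts per gene and cell (20275 genes) and antibody counts for 29 antibodies, made with Cell Ranger 3.1.0 on mm10, with cells filtered and clustered in Seurat 3.1.5 per the labels and methods. The deposited cell table gives cluster codes, the hscScore as a score and the mitochondrial share as a fraction, and 6 of its columns were not used. The cells are not replicates, and 1 library allows no test.

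UMI counts were summed per group. CPM carry exact Poisson intervals, shares Clopper-Pearson intervals and ratios exact conditional binomial intervals, all at 95% and for counting error only. The limit given beside a share of 0 is instead 3 counts of the total. Genes with at least 50 UMIs over both groups were compared, and a ratio of 2 was the threshold. Cells were thinned to 5000 UMIs for values per cell. Each antibody's counts were put on a centered log-ratio (CLR) scale over the cells of the library, and a level of 1 was used. Cells were clustered again with scanpy 1.11.5 and leidenalg 0.10.2 (2000 variable genes without the cell cycle lists, 30 principal components, 20 neighbours, resolution 1). In simulated data for TCell3 against TCell2 (10024 genes compared), 100% of the genes changed 4-fold passed 2-fold, 0.0915% of unchanged genes did, and 95.9% of intervals held the true ratio. The simulation drew Poisson counts with no spread between cells, so it checks counting error only. It gives no error rate for the genes called in these data. The work used Python 3.11.15, biopython 1.88, scikit-learn 1.9.0, anndata 0.12.19, pandas 2.3.3, scipy 1.17.1 and numpy 2.4.6, and matplotlib 3.10.9 for figures.

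Genes named are those of 21 lists, the genes encoding the antigens of the antibodies, and, for the 4 comparisons of clusters, the 10 with the largest ratio each way (at least 100 UMIs over both groups and 50 CPM in the higher, without mitochondrial and ribosomal protein genes and Gm42418). Genes named outside that rule for the CD3-low cells were chosen after their values were seen. The clusters and lists were chosen with earlier results of these data known. Alternatives covered scaling, filters, depth, doublets, the second library, the clustering, the CLR and cells with mast genes.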

Additional observations from a re-analysis of the deposited data

How the results depend on the processing

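Over 6 comparisons of groups and the values per cell, 106 values under alternatives kept to within 1.5 times the count, or within the counting interval, of those above, and 83 did not. The comparisons of the CD3-low cells were chosen after seeing the data. Thinning each cell to 5000 UMIs, which leaves fewer genes at 50 UMIs, gave 120 genes at least 2-fold higher in TCell3 than in TCell2. It gave 138 higher and 266 lower in both clusters than in TCell1, 241 lower than in TCell4, 110 higher and 174 lower in the CD3-low cells than in other members, and 120 higher and 110 lower than in HSPC1 cells of their new cluster. With a minimum of 20 UMIs, the counts higher and lower were 412 and 85 for TCell3 against TCell2, 365 and 676 against TCell1, 640 and 663 against TCell4, 389 and 575 for CD3-low against other members, and 344 and 572 against HSPC1. With a minimum of 200 UMIs they were 130 and 3, 91 and 214, 179 and 226, 83 and 143, and 69 and 79 in the same order, and 265 and 1328 against the rest of the library. With a ratio of 3 they were 107 and 2, 84 and 171, 161 and 150, 64 and 204, and 81 and 98, and 130 higher against the rest. Without cells over 0.25% of mast UMIs, an alternative chosen after seeing the data that takes most mast cells out of the rest, 126 were higher and 1337 lower than in the rest, and the log2 ratio of Mcpt4 there was 0.21. The log2 ratio of Cma1 in TCell3 against TCell2 was then -0.012. Of 1110 values computed for 143 gene ratios, these 2 turned direction, 939 lay within the counting interval and 169 outside it.

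Clustering again put 15.7% of the library in clusters led by TCell2, 6.44% in those led by TCell3 and 22.2% in both. The S phase ratio of TCell3 to TCell2 was 1.34 in thinned cells and 1.33 without mast cells over the level, and the G2 and M phase ratio 1.25 and 1.31. In cells thinned to 2000 UMIs, Fgf3 had a UMI in 5.14% of TCell2 and 7.53% of TCell3, Hbb-bt in 21.8% and 16.7%, and Podxl in 0.206% of TCell2. Without thinning the shares were 33.3% and 36.0% for Fgf3, 46.5% and 47.6% for Hbb-bt, and 6.38% and 10.4% for Podxl. A CLR level of 0.75 was passed by 62.1% of TCell2 and 75.7% of TCell3 for CD90.2 and by 86.2% and 89.8% for CD48, and a level of 1.5 by 36.8%, 52.6%, 5.76% and 14.6%. With the CLR taken per cell, the shares were 87.7% and 93.6% for CD90.2 and 98.6% and 98.3% for CD48. The level of 0.75 put 29 TCell2 and 23 TCell3 cells in the phMPP2 gate. At 1.5, and with the CLR over all HP libraries, both gates held 0 cells of TCell2 and TCell3. The cause of these shifts was not tested beyond what the settings themselves fix.

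No paired analysis was possible because the cells of these groups come from 1 library. Intervals hold counting error only, depth differs between clusters, and spread between animals cannot be seen.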

Other observations

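Several gene groups outside the comparisons above were measured in the same cells. Gzma, granzyme A, stood out among the killer cell genes, at 1546 CPM (1523 to 1569) in TCell2 and 1514 CPM (1493 to 1535) in TCell3. Nkg7, a granule membrane protein of killer cells, was at 338 CPM in TCell2 and 387 CPM in TCell3. Of the 10 killer and innate lymphoid genes compared with the rest of the library, Nkg7 and Gzma were at least 2-fold higher and 7 at least 2-fold lower, beside 3.32% and 16.2% of all genes compared. Against TCell1 and TCell4 neither Gzma nor Nkg7 was past 2-fold in either direction, while Gzmb, granzyme B, was at least 2-fold higher in the members than in both (11.0 CPM against 2.69 and 0.768 CPM), and the list summed to 1948 CPM in the members and 2174 CPM in TCell1. Of the 15 genes of the list, 10 were high enough to be compared with the rest of the library, but 5 with TCell1 and 5 with TCell4. Of the 15, 2, Eomes among them, had no UMI in the members.

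Genes of serine and one-carbon synthesis, which feeds nucleotide production, differed little from TCell1 and TCell4, with a median log2 ratio over the 10 genes of 0.27 and 0.04 and none of them past 2-fold, beside medians of 0.00 and 0.05 over all genes compared. Phgdh, the first enzyme of serine synthesis, was at 740 CPM in TCell2 and 712 CPM in TCell3 and was the only one of 10 that was at least 2-fold higher than in the rest of the library.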
